A study of Mus musculus with 9 samples.

Results

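The baseline transcriptome described here is that of wild-type mouse kidney, measured by RNA sequencing of total RNA. Its members are the 3 libraries whose labels give the genotype as WT, of 9 libraries in the series. The remaining libraries come from mice that carry an Nfkb1 knock-in allele, C59A or C59S, and no value from them enters here. The labels give the tissue as kidney and name no sex, age, strain, dissected zone or treatment for the wild-type mice. They do not say whether the 3 libraries are 3 animals, so the spread between them may be technical. With 1 group of 3 libraries there was no test, and each result is a level with its standard deviation (SD) or coefficient of variation (CV, the SD as a percent of the mean).

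A kidney is a mixture of nephron segments and supporting cells. Podocytes hold the glomerular filter, the proximal tubule takes back most of the filtered solutes and makes glucose, the thick ascending limb and distal convoluted tubule reabsorb salt, and the collecting duct adjusts water (principal cells) and acid (intercalated cells). The proximal tubule burns fatty acids and other substrates in its many mitochondria, while the inner medulla works at low oxygen and high osmolality. In such bulk tissue, fewer cells of a type and less RNA per cell cannot be told apart. Levels are in FPKM, counted fragments scaled by annotated gene length and library depth. Comparing genes of different length therefore rests on that annotation.

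The libraries held 21144972, 18428728 and 18727752 counted fragments in WT replicates 1, 2 and 3. At that depth 3 fragments of a 1 kb gene came to 0.124, 0.148 and 0.141 FPKM. Genes under that floor may be absent or only too low for this depth. Of 52636 genes in the table, 13081 reached a mean of 1 FPKM, which is called expressed here. They include 11282 protein-coding genes, 51.2% of those in the table, and 11269 of them are encoded in the nucleus. The female-specific RNA Xist stood at 68.2, 69.7 and 44.8 FPKM, while the Y-linked genes Ddx3y, Eif2s3y, Kdm5d and Uty had 0, 0 and 5 reads in all.

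Each of the 3 libraries stood apart from the other two in a different set of genes. Replicate 1 was at least 2-fold above both others in 27 of the 11269 nuclear protein-coding genes (0.24%) and at most 1/2 of both in 16 (0.142%). Replicate 2 was 2-fold above both in 49 (0.435%) and at most 1/2 of both in 70 (0.621%), and replicate 3 in 44 (0.39%) and 111 (0.985%). Genes called in this way are given below beside their values in every library. Replicates 2 and 3 lay farthest apart, with 578 genes at least 2-fold different (5.13%), against 229 (2.03%) for replicates 1 and 2 and 274 (2.43%) for replicates 1 and 3. The correlation of log2 levels across genes, which are not independent replicates, was 0.981, 0.978 and 0.973 for replicates 1 and 2, 1 and 3, and 2 and 3.

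A few genes held much of the RNA. The 100 highest genes, mitochondrial ones included, took 54.9%, 53.9% and 51.6% of all FPKM in the 3 libraries. Outside the mitochondrial genome the 100 highest took 31.3%, 32.2% and 32.7% of the FPKM of such genes. By counts, which are not scaled by gene length, mitochondrially encoded genes took 19.6%, 18.8% and 16.4% (18.2% ± 1.65, SD, n = 3). mt-Cytb, the cytochrome b of respiratory complex III, was at 33690, 30121 and 29070 FPKM. mt-Co2, a subunit of complex IV encoded by the same mitochondrial genome, was at 3012, 4883 and 1454 FPKM, lowest in replicate 3.

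Among nuclear protein-coding genes 15 reached 1000 FPKM, 398 reached 100 and 3781 reached 10, around a median of 5.93 FPKM for the expressed ones. Gpx3 (ENSMUSG00000018339, GRCm38 chromosome 11, 54902453 to 54910377), the glutathione peroxidase that the proximal tubule secretes into plasma, led with 14089, 17005 and 19899 FPKM. That gene alone was 5.40%, 6.08% and 6.92% of the summed FPKM of genes outside the mitochondrial genome (nuclear FPKM), with its highest level in replicate 3. Next came Kap, the kidney androgen-regulated protein of the proximal tubule, and Miox, the myo-inositol oxygenase that breaks down inositol, at 2581, 2745 and 3272 FPKM. Klk1, the tissue kallikrein made by the connecting tubule, was at 2030, 2338 and 4017 FPKM. Fth1 and Ftl1, the heavy and light chains of the iron store ferritin, were at 2466 ± 425 and 1313 ± 186 FPKM (SD, n = 3).

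**Figure D1:**
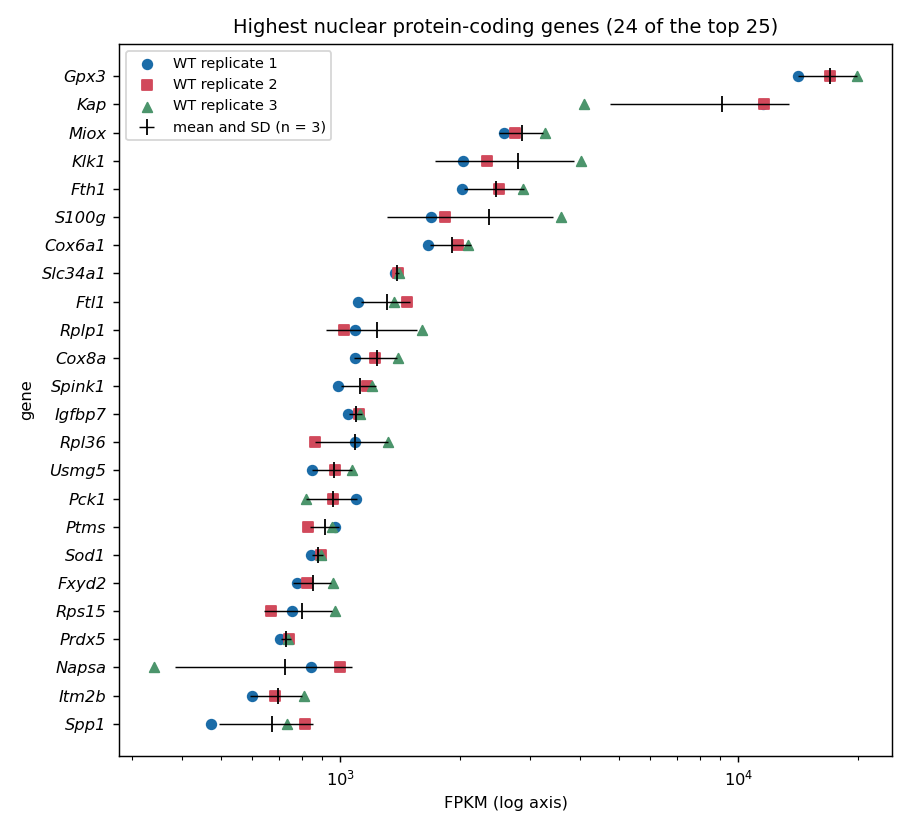
FPKM (log axis) of 24 of the 25 nuclear protein-coding genes of highest mean level, with 1 marker per wild-type library and a bar for the mean and SD of the 3. Gpx3 is highest in all 3 libraries, Kap and Napsa are lowest in replicate 3, and the 3 markers of Slc34a1 lie on top of each other.

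Promoter sequences of high-ranking cell type genes are shown with 2 plain features, a TATAAA box and CpG content. The windows taken were 8, 1 for each of 7 cell type lists and 1 for the reference genes. All are of the highest gene of a list except those of Umod and Rhcg, which come next after Ppp1r1a and Slc4a9. Of the 8 windows, the 4 printed were picked with both features in view. Each is 150 bases of the RefSeq table for GRCm38.p6, from 120 before to 30 after the annotated start, 5′ to 3′ on the gene's strand. Capitals mark TATAAA on the sense strand with its first base 40 to 20 bases before the start.
Kap: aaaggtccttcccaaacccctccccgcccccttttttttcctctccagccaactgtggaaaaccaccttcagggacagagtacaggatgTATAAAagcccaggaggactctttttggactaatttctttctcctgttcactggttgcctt
Miox: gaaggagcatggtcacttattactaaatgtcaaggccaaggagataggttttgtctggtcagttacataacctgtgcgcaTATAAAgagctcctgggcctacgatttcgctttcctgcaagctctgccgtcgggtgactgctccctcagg
Umod: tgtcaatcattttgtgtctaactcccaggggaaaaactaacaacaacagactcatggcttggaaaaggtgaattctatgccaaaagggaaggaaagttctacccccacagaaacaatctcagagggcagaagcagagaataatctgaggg
Actn4: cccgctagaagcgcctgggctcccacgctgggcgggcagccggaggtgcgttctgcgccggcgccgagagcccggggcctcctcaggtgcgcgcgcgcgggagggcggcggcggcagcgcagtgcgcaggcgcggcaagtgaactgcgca
These windows are chr6:133853638-133853787 (minus strand), chr15:89334353-89334502 (plus), chr7:119479233-119479382 (minus) and chr7:28962303-28962452 (minus). The boxes of Kap and Miox begin 31 and 40 bases before the start, where 2.86% of all 16796 windows of nuclear protein-coding genes hold TATAAA. Over the full 300 base windows Kap had 1 CpG, Miox 6, Umod 0 and Actn4 35, and the median of all windows was 14. Of the 4 windows not printed, S100g had 3 CpG, Aqp2 8, Rhcg 19 and Eef1a1 22, and none held TATAAA in those positions. S100g held TATAAA at the annotated start itself (position 0). The deposited gene start differs from the start used here by 95 bases for Kap, 75 for Miox and 7427 for Eef1a1. By the deposited coordinates the boxes of Kap and Miox lie inside the gene. Of all windows, 74.5% lie within 100 bases of the deposited gene start.

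CpG content in the same windows differed between groups of kidney genes. The median CpG number was 6 for 16 of 19 early proximal genes with a window, 5 for 13 of 16 thick limb genes, 8.5 for 12 of 13 distal genes and 6 for all 7 gluconeogenesis genes. It was 21 for 14 of 17 citric acid cycle genes, 19 for 68 of 83 nuclear respiratory chain genes and 17 for 19 of 22 genes of fatty acid oxidation. Amino acid breakdown genes, with a median of 9, and glutathione genes, with 11, lay between. GTTAAT, a core of the sites that the factor HNF1 binds, was present on either strand in 5 of the 16 early proximal windows (31.2%) and 3 of the 13 thick limb windows, against 6.15% of all windows. It was also in 2 of the 7 gluconeogenesis and 2 of the 19 fatty acid oxidation windows. GTTAAT was not particular to these lists, being in 3 of 5 liver, 4 of 20 claudin, 2 of 9 late proximal and 1 of 5 pancreas windows. In the distal list 1 of 12 windows held it, and in the respiratory chain list 1 of 68. None of the 14 citric acid cycle windows held it, but so few windows cannot tell none from the 6.15%. A match describes these letters in this window only. Only groups with at least 80% of their genes in the table are given, and not all of those.

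Early proximal tubule genes had the highest median of the 11 kidney cell type lists, and all 19 were expressed, with a median of 70.9 FPKM over a range of 18.9 to 2866. By summed FPKM the late proximal list was higher, at 9502 against 8533 on average, most of it Kap. Each list median is taken over all its genes in the table, expressed or not. Slc34a1 (ENSMUSG00000021490, chromosome 13, 55398187 to 55415592), the main sodium-phosphate cotransporter of the brush border, was at 1373, 1393 and 1402 FPKM. Its CV of 1.06% was the smallest of the 15 nuclear protein-coding genes above 1000 FPKM. Slc5a2, the sodium-glucose cotransporter SGLT2, was at 193, 234 and 161 FPKM. Lrp2, the endocytic receptor megalin, was at 79.6, 74.6 and 58.6 FPKM, and Aqp1, the constitutive water channel, at 107, 116 and 92.4 FPKM. Both were lowest in replicate 3, as were 10 of the 19 genes in all, and 14 were highest in replicate 2. The rank shares over all genes were 31.0% lowest in replicate 3 and 33.5% highest in replicate 2.

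Paralogs that divide the proximal work kept a fixed order in each library. Slc5a2 exceeded Slc5a1, the SGLT1 of the late segment, by a ratio of 19.1 ± 2.81 (SD, n = 3). Slc34a1 exceeded its relative Slc34a3 26.9 ± 4.11 times, and the organic anion transporter Slc22a8 (OAT3) exceeded Slc22a6 (OAT1) 4.04 ± 0.329 times. The smallest relative spread of these 3 ratios was that of the anion transporters.

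Late proximal genes formed the list in which the libraries differed most among the tubule segments, with a median CV of 41.4% against at most 27.5% in the others. Kap was at 11563, 11616 and 4092 FPKM, Aadat, which transaminates aminoadipate and kynurenine, at 158, 294 and 56.7, and Slc22a7, the organic anion transporter OAT2, at 129, 142 and 33.8. Replicate 3 was the low library for each of these 3 genes, at most 1/2 of both others. The same held for 5 of the 9 expressed members, where the share over all genes was 0.985%, and 8 of the 9 were lowest in replicate 3. The members nearest to that limit on the other side were Slc5a10, a sugar transporter, at 55.2, 67.7 and 32.1 FPKM, and Slc3a1, the heavy subunit of the cystine transporter, at 28.8, 45.7 and 20.6. Slc5a1 (8.76, 12.3 and 9.86 FPKM) and Slc5a8, a monocarboxylate transporter (7.21, 7.50 and 6.61), stayed within a narrow range. Slc7a13, an amino acid transporter of the last proximal segment, reached only 0.462, 0.621 and 1.29 FPKM.

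Of all 254 expressed solute carrier genes 15 were at most 1/2 of both others in replicate 3, against 0.985% of all genes, and 2 of the 15 (Slc22a7 and Slc22a19) are among the late proximal genes counted above. Napsa, an aspartic protease of the proximal tubule, was at 842, 999 and 341 FPKM, also lowest there. Akr1c18, a steroid-metabolising aldo-keto reductase, was at 135, 55.8 and 5.44 FPKM. All 3 libraries differed from each other in this gene, with replicate 3 lowest.

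**Figure D2:**
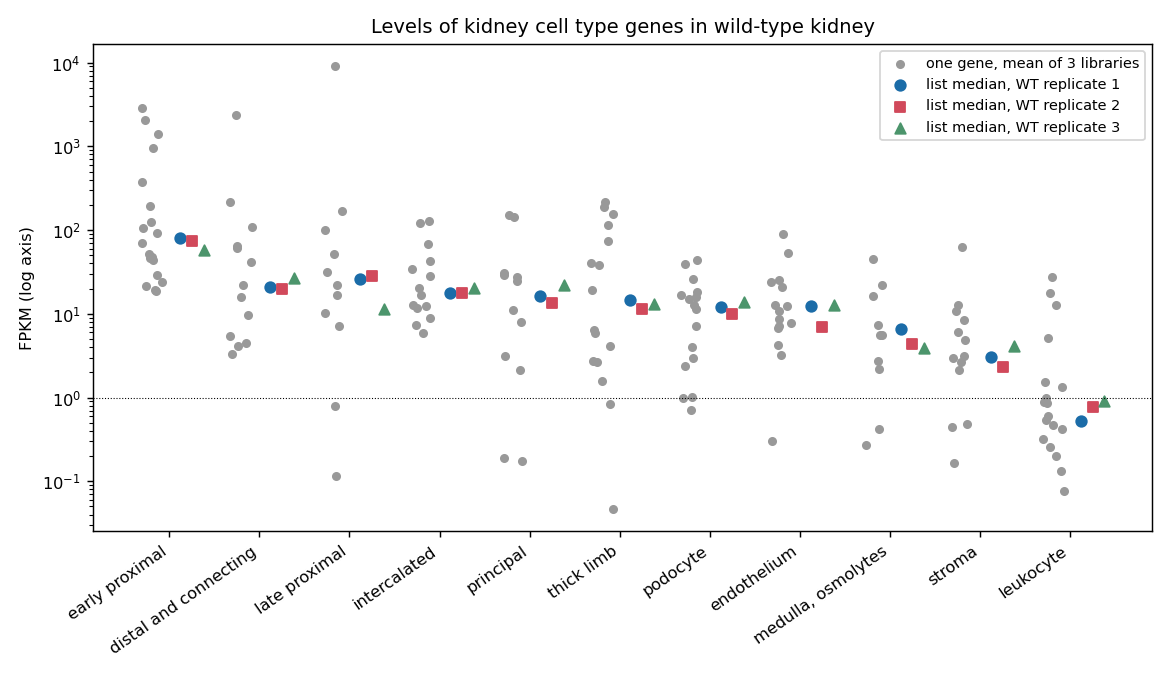
FPKM (log axis) of cell type genes, with grey points for single genes (mean of 3 libraries) and coloured markers for the list median in each library. The dotted line is 1 FPKM. By median the early proximal list is highest and the leukocyte list lowest, and the late proximal median of replicate 3 lies below those of replicates 1 and 2.

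The thick limb list had a median of 12.7 FPKM, with 14 of 16 genes expressed. Ppp1r1a, an inhibitor of protein phosphatase 1, led with 202, 219 and 229 FPKM. Umod, the urinary protein uromodulin, was at 139, 270 and 151 FPKM, highest in replicate 2. Slc12a1, the sodium-potassium-chloride cotransporter NKCC2 that loop diuretics block, was at 146, 103 and 101 FPKM. Thus the 2 best known products of the segment did not order the libraries alike. Egf, the precursor of epidermal growth factor, was at 62.0, 86.4 and 71.8 FPKM. Cldn14, a claudin of this segment, was at 0.0466 FPKM, below the 3-fragment floor of a 1 kb gene.

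All 13 distal convoluted and connecting tubule genes were expressed, with a median of 22.4 FPKM, and 10 of them were highest in replicate 3, where 38.1% of all genes were. Slc12a3, the thiazide-sensitive sodium-chloride cotransporter NCC, was 1 of the 3 that were not, at 185, 291 and 175 FPKM. It exceeded Slc12a1 in all 3 libraries, with a Slc12a1 to Slc12a3 ratio of 0.787, 0.354 and 0.577. The genes that stood highest in replicate 3 included the calcium-handling ones. S100g, the calcium carrier calbindin-D9k, was at 1692, 1829 and 3587 FPKM, Calb1, calbindin-D28k, at 25.4, 30.9 and 69.6, and Trpv5, the apical calcium channel, at 3.29, 3.33 and 5.61. In each of these 3 genes replicates 1 and 2 lay close together and replicate 3 above them. Calb1 was the only member of the list at least 2-fold above both others.

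In the collecting duct, 10 of 12 principal cell genes were expressed (median 17.7 FPKM) and 8 were highest in replicate 3, where 38.1% of all genes were. Aqp2, the vasopressin-regulated water channel, was at 149, 128 and 180 FPKM, and Hsd11b2, which inactivates glucocorticoids, at 121, 100 and 204. Scnn1a, the alpha subunit of the epithelial sodium channel, was at 28.7, 32.3 and 31.6 FPKM and exceeded the gamma subunit Scnn1g 2.95 ± 0.762 times. Aqp4, the basolateral water channel, went the other way at 5.16, 2.76 and 1.42 FPKM. Of intercalated cell genes all 14 were expressed (median 18.5 FPKM), and all 14 were highest in replicate 3, against the same 38.1%. Slc4a9, the bicarbonate transporter AE4, was at 135, 101 and 153 FPKM, Rhcg, an ammonia channel, at 120, 97.4 and 144, and Atp6v1g3, a proton pump subunit, at 46.6, 51.1 and 107. Atp6v1g3 was the only 1 of the 14 that was 2-fold above both other libraries.

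Among genes of the inner medulla and of osmolyte handling, 8 of 10 were expressed and 1 set replicate 1 far apart. Slc14a2, the urea transporter of the inner medullary collecting duct, had 1265 reads in replicate 1 and 9 and 23 in replicates 2 and 3, which is 16.3, 0.139 and 0.337 FPKM. Its level in replicate 1 was 48.3 times that of the nearer library, and the gene was the highest in CV, 165.8%, among the expressed members of all lists. Cryab, a small heat shock protein, was at 68.4, 34.4 and 32.5 FPKM, and Psca, a surface antigen of the urothelium list, at 5.32, 1.37 and 2.51 FPKM. Both were highest in replicate 1, and so were 5 of the 8 expressed medullary genes, against 28.4% of all genes. Slc14a2 is 1 of those 5 and passed 1 FPKM only through replicate 1, so the count partly follows from that filter. Genes of the urothelium list did not order the libraries alike, and some under 1 FPKM were highest in replicate 3. Nfat5, the osmotic stress factor, was at 5.77, 6.27 and 4.6 FPKM and did not single out replicate 1. The labels do not say which zones of the kidney a library holds, and the part of dissection in these values was not tested.

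Podocyte genes were expressed for 14 of 16, with a median of 12.1 FPKM. Actn4, an actin crosslinker found in many cells, led with 41.4, 43.0 and 49.2 FPKM. Nphs1, the slit diaphragm protein nephrin, was at 12.1, 8.65 and 13.9 FPKM. Podxl, the podocalyxin that coats podocytes and endothelium, was at 36.1, 25.0 and 57.0 FPKM. Replicate 3 was highest for 12 of the 14 and replicate 2 lowest for 10, against 38.1% and 32.8% of all genes.

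The vascular lists placed replicate 2 lowest throughout. Plvap, the diaphragm protein of fenestrated capillaries, was at 95.8, 39.3 and 136 FPKM, Eng, a co-receptor for TGF-beta family ligands, at 52.3, 33.2 and 76.5, and Kdr, a receptor for VEGF, at 6.24, 3.53 and 10.8. All 14 expressed endothelial genes were lowest in replicate 2, where 32.8% of all genes were, and 4 were at most 1/2 of both others, where 0.621% of all genes were. All 10 expressed stromal genes were lowest in replicate 2 as well, against the same 32.8%, among them Pdgfrb, the PDGF receptor of pericytes, at 9.78, 7.03 and 15.4 FPKM. The red blood cell genes moved with them: Hba-a1, alpha globin, was at 277, 83.8 and 247 FPKM, and all 4 expressed members were at most 1/2 of both others in replicate 2. The summed level of the 5 genes of the list was 496, 179 and 487 FPKM. Whether the amount of blood or vessel in the sample bears on the endothelial values was not tested.

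Leukocyte genes were low, with 6 of 18 expressed and a median of 0.728 FPKM. The macrophage complement gene C1qa was at 19.0, 25.4 and 37.7 FPKM, and Ptprc, the pan-leukocyte CD45, at 0.567, 0.917 and 1.09. Immunoglobulin genes, which antibody-secreting plasma cells express, stood apart from them. Igkc, the kappa light chain constant region, was at 84.5, 616 and 108 FPKM, and Igha, the IgA heavy chain, at 21.7, 152 and 20.6. Replicate 2 was at least 2-fold above both others in 21 of 23 expressed immunoglobulin genes, which are outside the protein-coding class of the file. The set was added after the data were seen, and a mean of 1 FPKM can be reached through replicate 2 alone. This count therefore partly follows from that choice and from the filter. The shares over all genes cover protein-coding genes only and give no background for it.

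Replicate 2 also stood apart in immediate early genes, transcription factors and regulators that cells switch on within minutes of stimulation. Fos, a subunit of the factor AP-1, was at 1.02, 12.3 and 0.778 FPKM, Egr1, a zinc finger factor, at 1.47, 11.2 and 1.62, and Nr4a1, an orphan nuclear receptor, at 2.10, 20.9 and 3.81. Replicate 2 was highest in 10 of the 11 expressed members, against 33.5% of all genes, and 2-fold above both others in 4 of them, against 0.435%. Fos is in both counts and reached a mean of 1 FPKM only through replicate 2, so they partly follow from that filter. Jun was at 13.3, 17.7 and 12.8 FPKM, a smaller difference, and Myc at 4.48, 3.21 and 3.35 was the 1 member highest elsewhere. Of 13 expressed circadian genes 7 were highest in replicate 2 and 6 in replicate 1, against 33.5% and 28.4% of all genes. Dbp, a factor of the clock output, was at 38.5, 56.2 and 31.1 FPKM and the clock repressor Per1 at 20.7, 25.5 and 22.2. Another repressor, Per2, was lowest in replicate 2 at 29.7, 14.0 and 20.7 FPKM. Arntl, which peaks in the opposite phase to Dbp and Per1, was under 1 FPKM at 0.318, 0.111 and 0.262. The phase of the clock in each library was not tested.

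**Figure D3:**
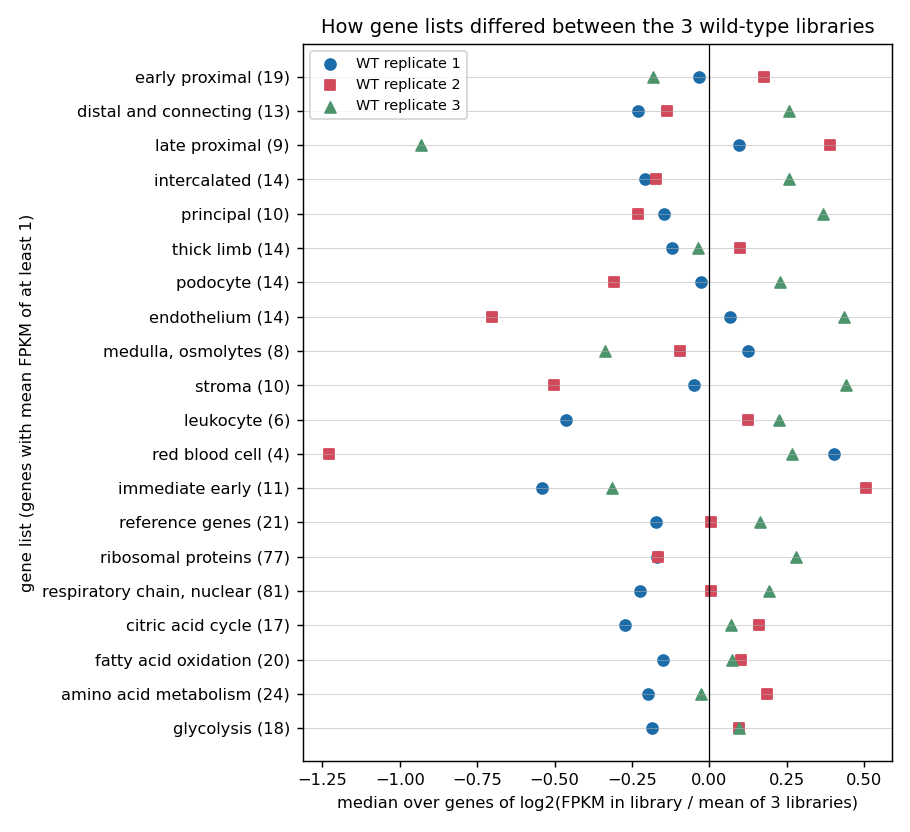
For each gene list (number of expressed genes in brackets), the median over genes of log2 of the FPKM in a library over the mean of the 3 libraries. Red blood cell, endothelial and stromal lists lie lowest in replicate 2, the late proximal list lowest in replicate 3, and the respiratory chain and citric acid cycle lists lowest in replicate 1.

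**Figure D4:**
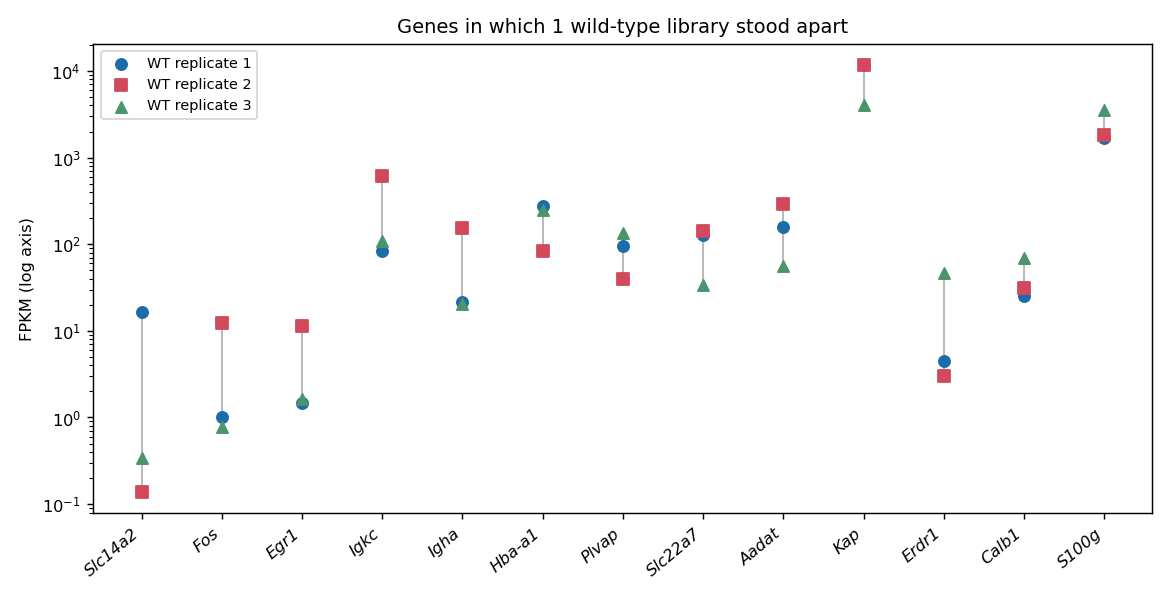
FPKM (log axis) of 13 genes in the 3 wild-type libraries, chosen after their values were seen to show 1 library away from the other two. Slc14a2 is high in replicate 1, Fos, Egr1, Igkc and Igha are high in replicate 2, and Erdr1, Calb1 and S100g are high in replicate 3.

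Genes of glucose production stood above those of glucose breakdown by list median. Pck1, the phosphoenolpyruvate carboxykinase that commits carbon to gluconeogenesis, was at 1098, 960 and 820 FPKM, and exceeded the mitochondrial form Pck2 122 ± 26.6 times (SD, n = 3). All 7 gluconeogenesis genes were expressed, with a median of 68.0 FPKM. Fbp1, fructose bisphosphatase, was at 135, 277 and 209 FPKM, and G6pc, the glucose 6-phosphatase that releases glucose, at 128, 115 and 208. Of glycolysis genes 18 of 22 were expressed (median 28.3 FPKM). Ldhb, the lactate dehydrogenase subunit of oxidative tissues, exceeded Ldha 7.84 ± 0.403 times. Hk1, the general hexokinase, was at 9.80, 9.87 and 10.8 FPKM. Hk2, the insulin-sensitive form of muscle and fat, was at only 0.141 FPKM, from 15, 13 and 27 reads.

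Lists of oxidative genes had medians above the 5.93 FPKM median of expressed nuclear protein-coding genes. The 83 nuclear respiratory chain genes, 81 of them expressed, had a median of 151.8 FPKM and together held 6.27% of nuclear FPKM, led by Cox6a1, a complex IV subunit, at 1656, 1974 and 2089. The 17 citric acid cycle genes had a median of 63.4 FPKM, and every one was lowest in replicate 1, where 36.2% of all genes were. Of fatty acid oxidation genes 20 of 22 were expressed (median 26.0 FPKM, below the 28.3 FPKM of glycolysis genes). Cpt1a, the liver-type carnitine palmitoyltransferase that admits fatty acids to mitochondria, exceeded the muscle form Cpt1b 65.7 ± 16.4 times. The 12 peroxisomal genes had a median of 78.7 FPKM. Oxct1, which lets tissues use ketones, was at 85.1, 150 and 118 FPKM, highest in replicate 2.

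Amino acid and glutathione genes were expressed throughout. All 24 amino acid genes were expressed (median 44.3 FPKM), led by Ass1, the argininosuccinate synthase of arginine production, at 479, 697 and 713 FPKM. Arg2, the mitochondrial arginase, had the largest spread of the list at 1.85, 6.90 and 0.985 FPKM, with replicate 2 highest. The 16 glutathione genes had a median of 92.2 FPKM and held 6.94% of nuclear FPKM, most of it Gpx3. Gclc, the catalytic subunit of the first enzyme of glutathione synthesis, was at 105, 62.1 and 37.6 FPKM, highest in replicate 1 and lowest in replicate 3. Sterol and fatty acid synthesis was lower, with a median of 4.48 FPKM. Scd1, the stearoyl-CoA desaturase, was at 22.7, 59.9 and 13.8 FPKM.

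Of the sodium pump that drives tubular transport, Atp1b1, a beta subunit, was at 167, 269 and 187 FPKM, highest in replicate 2. Fxyd2, the gamma subunit, was at 778, 826 and 957 FPKM, highest in replicate 3.

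Hormone and regulator genes covered a wide range. Ren1, renin, was at 92.2, 63.3 and 145 FPKM, and Kl, the FGF23 co-receptor klotho, at 33.2, 37.2 and 48.1. Cyp24a1, which degrades vitamin D, was at 12.9, 51.5 and 18.7 FPKM, and Cyp27b1, which activates it, at 4.37, 4.10 and 3.21. The balance of these 2 enzymes therefore varied, with a ratio of 2.95, 12.6 and 5.83. Epo, erythropoietin, was at 0.0482, 0.115 and 0.274 FPKM. Hnf4a, a nuclear receptor of the proximal tubule, led the kidney factors at 100.4, 115 and 79.6 FPKM, and Six2, a factor of embryonic nephron progenitors, had no read. The NF-kB subunits, the family whose Nfkb1 member is altered elsewhere in the series, were led by Rela (p65) at 14.9, 13.6 and 17.0 FPKM. Nfkb1 itself (ENSMUSG00000028163, chromosome 3, 135584655 to 135691547), the precursor of p50, was at 2.61, 2.74 and 3.00 FPKM, and Rel, the lymphoid subunit, at 0.384.

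All 21 genes often used as references were expressed, but they were not equally steady. Their median level was 75.4 FPKM and their median CV 16.5%, against 13.1% for all expressed nuclear protein-coding genes. Gapdh, a glycolytic enzyme, was at 85.7, 122 and 48.6 FPKM, a CV of 43.0%. Ywhaz, a 14-3-3 adaptor, was at 57.8, 54.9 and 60.6 FPKM, and Actb, cytoplasmic actin, at 208, 213 and 282. Gapdh has many processed copies in the genome, and how reads shared with copies were counted is not given in the sources used here. Of the 77 ribosomal protein genes, 72 were highest in replicate 3, with list medians of 137.3, 137.0 and 190.3 FPKM, and nuclear respiratory chain genes were highest there in 65 of 81. The share over all genes was 38.1%. Most of these proteins are small, and over the 359 expressed genes under 1 kb the median log2 level against the 3-library mean was -0.12, -0.04 and 0.14 in replicates 1, 2 and 3. For the 1692 genes of at least 8 kb it was 0.03, 0.02 and -0.05. The part of gene length in these orders was not tested.

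The spread between libraries exceeded counting error at every level. The median CV was 15.1% for genes of 1 to 3 FPKM, 11.98% for 10 to 30 and 16.04% for 100 to 1000, where counting alone would give 6.91%, 2.88% and 1.18%. Among the 11269 genes 3887 (34.5%) had a CV under 10% and 226 (2.01%) one of at least 50%. The steadiest gene above 10 FPKM was Ncstn, the gamma-secretase subunit nicastrin, at 14.96, 15.01 and 14.91 FPKM. Mrpl37, a mitochondrial ribosome subunit, and Stx7, a syntaxin of endosomes, followed with CVs of 0.450% and 0.580%. All 3 genes lie below the CV that counting alone would give, as did 4.31% of the genes of 10 to 30 FPKM. At the other end was Erdr1, at 4.51, 3.02 and 46.9 FPKM, with Gm21887 at 11.4, 11.1 and 55.2. The file places Erdr1 on chromosome Y and Gm21887 on chromosome X, near the region that these chromosomes share, and they may share reads, so their separate levels are uncertain.

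**Figure D5:**
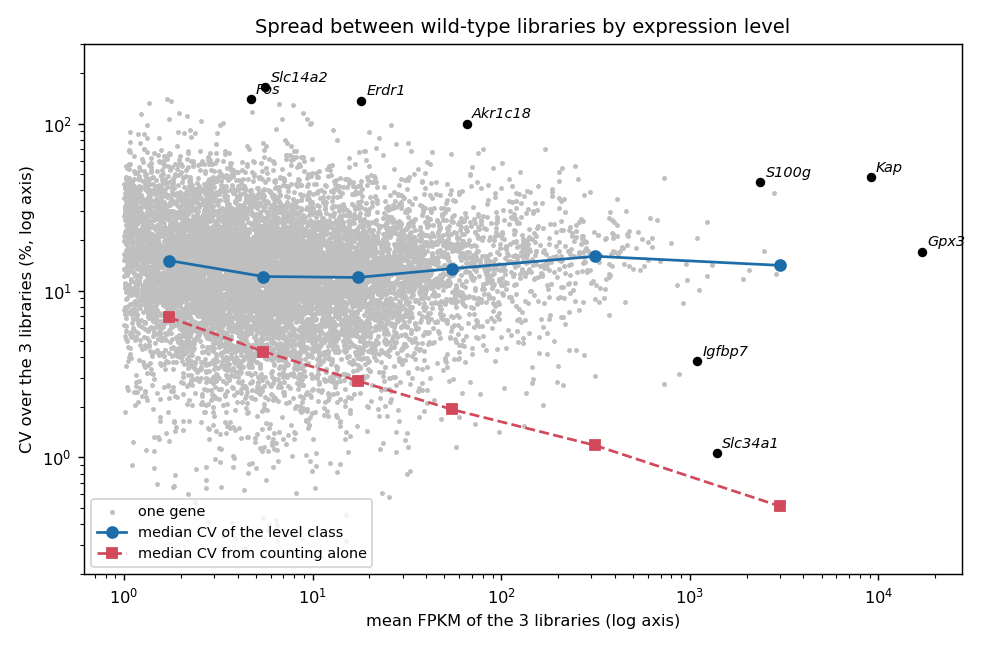
CV over the 3 libraries (%, log axis) against mean FPKM (log axis) for expressed nuclear protein-coding genes. The median CV of the level classes (solid line) stays between 11.98% and 16.04%, while the CV from counting alone (dashed line) falls from 6.91% to 0.511%.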

How the data were processed

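RNA sequencing of mouse kidney total RNA was read from deposited tables of 9 libraries, and the 3 WT columns alone were used. The counts are raw whole numbers per gene as deposited by the authors. The FPKM values are also the authors' own and equal, in the deposited tables, the counts over gene length and over 1 constant per library, which was 1.15, 1.10 and 1.14 times the total count. Per the submitters' processing notes the tools were CASAVA 1.8, fastp, HISAT2 2.0.5, featureCounts 1.5.0-p3 and DESeq2 1.20.0 with GRCm38. Parameters, strand setting, annotation release and the handling of reads with several positions are not given in the sources used here, so paralogs and antisense genes may share reads.

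From these values the mean, SD and CV over the 3 libraries were computed in Python 3.11.15 with pandas 2.3.3, and figures were drawn with matplotlib 3.10.9. A gene with a mean of at least 1 FPKM was called expressed. A library stood apart in a gene at 2-fold above both others or at most 1/2 of both, counted over nuclear protein-coding genes. Depth was 18428728 to 21144972 counts. The CV from counting alone is 1 over the square root of the mean count, and the count floor was 3. The 3 libraries are not duplicates: chi-square per degree of freedom between pairs was 36.2 to 52.3. The biological CV was estimated with edgeR 4.0.16 in R 4.3.3 with an intercept only, and that step and the 2-fold rule were tested on simulated data. The alternatives used library totals, TMM factors or DESeq2 1.42.0 size factors in place of the deposited constant, totals without mitochondrial genes, other FPKM minima, other gene types, a log scale, and each library left out in turn.

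The 46 gene lists and the members were chosen with earlier results of these data known. The naming rule took all reference and sodium pump genes, the 4 highest members and the member of highest CV of each other list, the 25 highest nuclear protein-coding genes, the 5 highest long noncoding genes and the 10 genes of lowest and of highest CV. Further names in the text (Slc5a2, Slc5a1, Slc34a3, Slc22a6, Lrp2, Slc3a1, Slc5a8, Slc7a13, Egf, Cldn14, Trpv5, Scnn1g, Nfat5, Nphs1, Kdr, Ptprc, Igkc, Igha, Egr1, Nr4a1, Myc, Per2, Arntl, Pck2, Ldha, Hk1, Hk2, Cpt1a, Cpt1b, Cyp27b1, Six2, Adipoq, Slc22a19, Vcam1, Havcr1, Lcn2 and Mki67) were chosen after their values were seen. So was the set of 26 gene ratios, of which 9 are given. Several genes meeting the rule are left unreported here. Where several genes bear a symbol, the one with most reads was used. Promoter windows of RefSeq (250 bases before to 50 after the start) matched 16796 of 21979 nuclear protein-coding genes (76.4%), 460 of them by an older symbol, so checks over all genes by level are void, and 4 of the 8 windows that the rule takes are printed.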

Additional observations from a re-analysis of the deposited data

How the results depend on the processing

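The 13081 expressed genes, the mitochondrial share and the share of the 100 highest genes stayed within 1.5 times (counts) or 1 SD (shares) of their values under library totals, TMM factors, DESeq2 size factors and each library left out. No paired analysis was possible because the results describe 1 group and come from no test. The median CV of 14.1% was 11.5% to 12.3% with a library left out, 14.9% with totals without mitochondrial genes, 20.2% at a minimum of 0.1 FPKM, 13.2% at 10 FPKM, 31.0% over all genes with any read and 13.1% over protein-coding genes. As an SD of log2 values it was 0.167 with a pseudocount of 1 and 0.2001 with 0.1. Genes with a CV of at least 50% numbered 663, and 566 to 1007 with a library left out, the highest without WT replicate 1. They numbered 4374 at 0.1 FPKM, 70 at 10 FPKM and 227 among protein-coding genes, an alternative chosen after seeing the data. Expressed genes numbered 21069 at 0.1 FPKM and 4061 at 10 FPKM, and the share of the 100 highest genes was 55.6% over protein-coding genes. With totals without mitochondrial genes, also chosen after seeing the data for this count, replicate 1 was at most 1/2 of both others in 25 genes and replicate 2 in 113. Of 301 levels of single genes and lists, 83 moved by over 1 SD under each of 3 other scalings, since the deposited constant exceeds the total, 211 without mitochondrial genes, and 2 to 5 with a library left out. Under the 4 other scalings the list counts by library moved by at most 2 genes (early proximal genes highest in replicate 2: 12 of 19; podocyte genes lowest in replicate 2: 10 to 12 of 14; respiratory chain genes highest in replicate 3: 64 to 67 of 81), and the share of all genes highest in replicate 3 was 34.2% to 40.8%. The early proximal list was the highest of the 11 cell type lists under every alternative. The common biological CV was 20.6%, and 23.4%, 19.9% and 18.4% without replicates 1, 2 and 3.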

Other observations

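Genes of other tissues that a dissected kidney can carry were expressed in part. Of 9 adrenal genes 5 had no read, and only Star, which moves cholesterol into mitochondria, was expressed (1.35 FPKM). Of 12 adipocyte genes 3 were expressed: the lipases Pnpla2 (36.2 FPKM) and Lipe (3.02 FPKM), and the fatty acid carrier Fabp4 at 13.7, 5.86 and 12.0 FPKM. Adipoq, adiponectin, was at 0, 0.0357 and 0.0340 FPKM. Of 8 urothelium genes 2 were expressed, Psca and Upk1a, a uroplakin of the bladder lining, at 1.45, 1.07 and 1.42 FPKM. All 6 liver genes were expressed, with a median of 4.92 FPKM, and they did not order the libraries alike. Ttr, transthyretin, was at 11.4, 39.5 and 14.2 FPKM, highest in replicate 2. Alb, albumin, at 13.4, 5.99 and 4.29 FPKM, and Apoa1, an apolipoprotein, at 4.94, 1.08 and 0.493, were highest in replicate 1. Serpina1a, an antitrypsin, was lowest in replicate 2 at 4.55, 1.34 and 5.04 FPKM. Of 6 pancreas genes only Cela1, an elastase, was expressed, at 84.1 ± 23.2 FPKM (SD, n = 3).

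Of 9 injury genes 5 were expressed. Spp1, osteopontin, led at 472, 814 and 734 FPKM, followed by Clu, the chaperone clusterin, at 40.4, 76.6 and 107, lowest in replicate 1. The keratins Krt8 (48.8 FPKM) and Krt18 (12.8 FPKM) were also above the 5.93 FPKM median of expressed genes, and Vcam1 was at 1.49. Havcr1, the tubular injury marker KIM-1, was at 0.107, 0.597 and 0.0609 FPKM, and Lcn2, lipocalin 2, at 1.07, 0.714 and 0.697. Of 8 proliferation genes 2 were expressed, Pcna (10.6 FPKM) and Mcm2 (1.22 FPKM), which act in DNA replication, while Mki67, a marker of dividing cells, was at 0.324 FPKM.

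The long noncoding RNA Malat1, a nuclear transcript, was at 395, 591 and 190 FPKM, and Neat1, which builds nuclear paraspeckles, at 128, 129 and 84.4. Both were lowest in replicate 3, which also had the lowest lincRNA share of counts (1.17%, 1.27% and 0.751%). The gene Gm26917 was at 151.9, 121.8 and 25.9 FPKM. Cytochrome P450 genes were expressed for 36 of 100. Cyp2d12 was at 143, 341 and 146 FPKM, and Cyp26b1, which degrades retinoic acid, at 3.40, 1.98 and 15.2, high in replicate 3. Cox8b, a complex IV isoform of heart, muscle and brown fat, was at 2.29, 19.6 and 1.69 FPKM, high in replicate 2.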
